A study of Mus musculus with 7 samples.

Results

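DNA repair and damage checkpoint genes were followed in mouse cardiomyocytes at postnatal day 30 (P30) and postnatal day 6 (P6). The set holds 49 genes of the 23337 in the deposited count table, chosen by symbol for their roles. Earlier results of these data were known when the genes were chosen. It covers 15 genes of homologous recombination, 10 of the Fanconi anaemia pathway, 10 of the damage checkpoint, 3 of mismatch repair, 4 of end joining, and 7 of base excision and single-strand break repair. Of these, 47 were found under the listed symbol, and Rad51b and Rad51d were found as Rad51l1 and Rad51l3, the older symbols RefSeq gives for them.

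Polyadenylated RNA was sequenced from sorted cardiomyocytes in 3 P30 libraries and 4 P6 libraries. Both groups share the labelled genotype Rosa-Tom/Cas9, which stands for a Rosa26 allele carrying a fluorescent reporter or the Cas9 nuclease; the allele carried by each mouse is not given, and no guide RNA is named. Both groups also received AAV9-cTNT-Cre on postnatal day 1, a virus in which the cardiac troponin T promoter drives Cre recombinase, so that the sorted cells are those in which the virus acted. Age and time since the virus cannot be told apart, and the treatment text names collection at P14 where titles and ages give P30 or P6. Whether each library came from a separate animal is not stated, and a p-value here reflects only the variation among the 7 libraries, some of which may be technical.

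As background, homologous recombination copies the lost sequence from an intact sister chromatid and therefore works mainly in cells that replicate their DNA, and the Fanconi pathway unhooks crosslinks met by replication forks. End joining, base excision and single-strand break repair act on damage at any stage of the cell cycle, and mismatch repair corrects errors of copying. The kinases Atm and Atr sense broken and single-stranded DNA and pass the signal to Chek2 and Chek1, the checkpoint kinases. Mouse cardiomyocytes stop dividing in the weeks after birth, the interval that separates the ages.

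Total counts were between 15555469 and 19368717 in the P30 libraries and between 10594932 and 51427646 in the P6 libraries. At least 1 count was present for 18223, 15720 and 16711 genes in P30a, P30b and P30c, and for 14476 to 15692 genes in the P6 libraries. The cause of this difference was not tested. Counts were scaled to CPM, the count of a gene relative to its library's size, with TMM factors, and 3 counts stood for 0.167 to 0.210 CPM at P30 and 0.0553 to 0.271 CPM at P6. Summed over 8 cardiomyocyte markers, the libraries held 117900 to 125700 CPM at P30 and 80350 to 99560 CPM at P6. Of these 8, 4 were higher at P30 and none lower. Markers of other cell types were also counted. Calls of higher or lower are those of the test below, which called 26.3% of all genes tested higher and 27.8% lower. The sum of 10 endothelial markers was 381 to 735 CPM at P30 and 133 to 260 CPM at P6, with 8 higher at P30. Of 11 macrophage and leukocyte markers, 8 were tested and 7 were higher at P30, with sums of 14.7 to 46.4 CPM at P30 and 2.47 to 6.33 CPM at P6. Of 9 smooth muscle and pericyte markers, 5 were higher and 1 lower, at 997 to 1830 CPM at P30 and 987 to 2198 CPM at P6, and most of that sum was Acta2. Fibroblast markers summed to 218.0 to 401 CPM at P30 and 196 to 449 CPM at P6, with 1 higher and 1 lower of 9 tested. Erythroid markers summed to 0.702 to 4.07 CPM at P30 and 2.40 to 10.7 CPM at P6, with Hba-a1 and Hba-a2 at 0 in every library. Hbb-bt was not found, and how multi-mapping reads were treated is not given, so counts of 0 need not mean absence. Schwann and neural markers were at 3.18 to 4.72 CPM at P30 and 3.55 to 4.98 CPM at P6. All 18 proliferation markers were lower at P30, with sums of 63.1 to 105.2 CPM, against 610 to 796 CPM at P6. The part of these markers in the values below was not tested.

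The comparison asked which repair routes had lower or higher transcript levels at P30 than at P6. At P30, 21 of the 49 genes were lower and 3 were higher, and 25 did not pass the test (quasi-likelihood test of edgeR with a threshold of 0.05 on the p adjusted by the Benjamini-Hochberg method over 12561 genes). Over all genes tested, 27.8% were called lower and 26.3% higher, and 54.1% either way. The median log2 fold change, P30 over P6, was -0.43 for the 49 genes and -0.02 for all genes. The fall was at least 2-fold in 14 of the genes, against 12.4% of all genes tested. All 49 passed the filter on low counts; at P30, 11 had a mean under 1 CPM, and at P6 none did.

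The classes differed in how many members fell. Recombination and Fanconi genes together gave 15 lower and 1 higher of 25, a share of 60.0% lower, with a median log2 fold change of -0.87. Mismatch, end joining and base excision genes together gave 2 lower and 1 higher of 14, a share of 14.3% lower, with a median of 0.00. The first share lies above the 27.8% of all genes called lower and the second below it, although scaling by library totals instead of TMM gave 17 of 25 and 5 of 14, with 4658 of the 12561 genes tested then lower. Without P30a or without P30c, 1 of the 14 was lower. The checkpoint genes gave 4 lower and 1 higher of 10, with a median of -0.02.

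**Figure D1:**
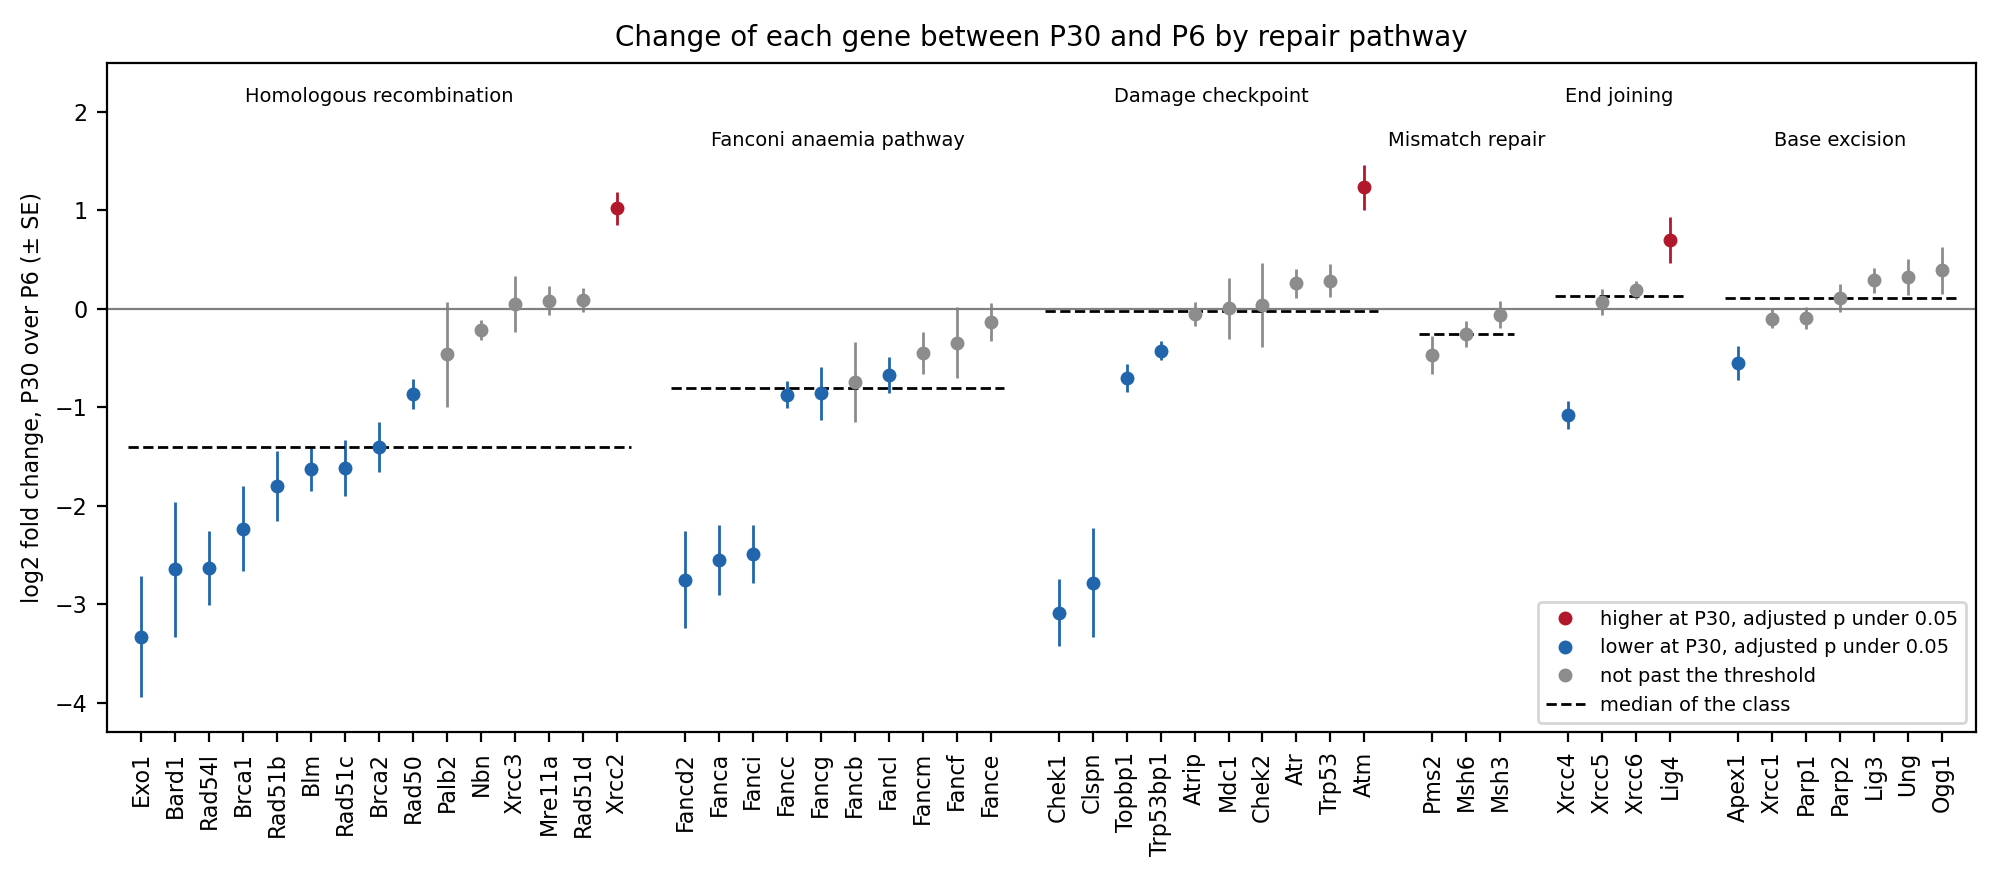
Log2 fold change (P30 over P6, with its standard error) of each of the 49 genes, grouped by class and coloured by the outcome of edgeR's quasi-likelihood test; 3 P30 and 4 P6 libraries. Falls gather in the recombination and Fanconi classes, with Exo1 lowest at -3.33, while the checkpoint class is split (4 lower and 1 higher of 10). The rises past the threshold are those of Xrcc2, Atm and Lig4.

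Summed CPM weights the most counted genes, of which Nbn was the highest in the recombination and Fanconi classes. The 25 recombination and Fanconi genes summed to 150.0, 147 and 149 CPM in the P30 libraries, and to 219, 218, 210 and 199 CPM in the P6 libraries. Their mean was 149 ± 1.36 CPM at P30 (SD, n = 3) and 212 ± 9.07 CPM at P6 (SD, n = 4), a ratio of 0.704. The 14 mismatch, end joining and base excision genes summed to 382 ± 9.73 CPM at P30 and 386 ± 26.8 CPM at P6, a ratio of 0.9896 that lies within the spread between libraries. Per kilobase of the longest annotated coding transcript, the median level of the 25 genes was 0.592 CPM per kb at P30 and 1.45 CPM per kb at P6, and that of the 14 genes was 4.78 CPM per kb at P30 and 6.29 CPM per kb at P6. In a bulk sample, fewer cells that hold a transcript and less of it per cell cannot be told apart.

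**Figure D2:**
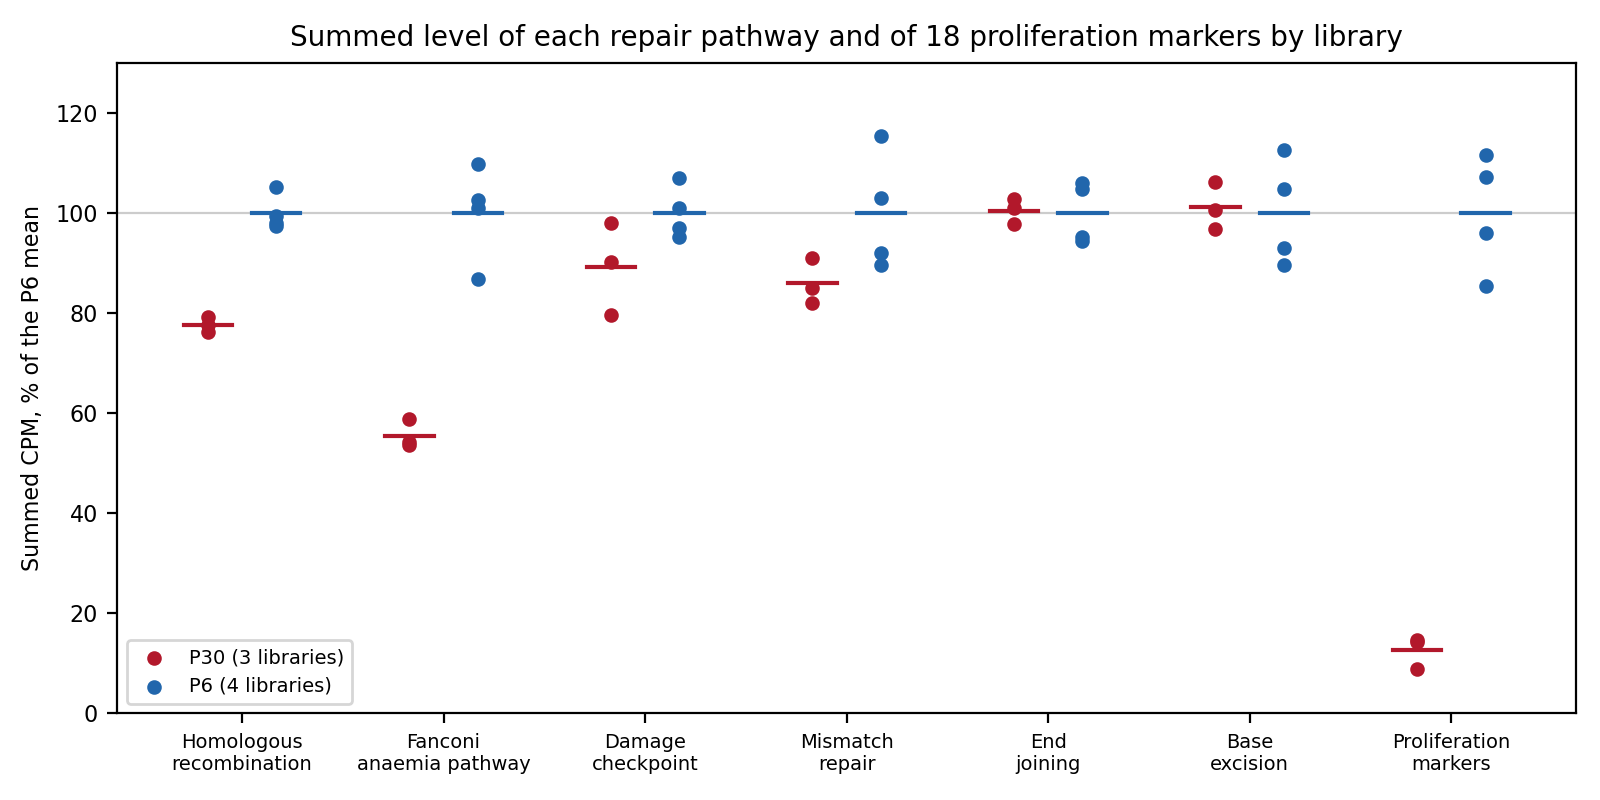
Summed CPM of each class of repair gene, and of 18 proliferation markers, in every library as a percent of the P6 mean, P30 left of P6, with horizontal bars for the group means. The recombination and Fanconi sums do not overlap between ages, with means of 110 and 38.7 CPM at P30 against 142 and 69.8 CPM at P6, while the base excision sums are 248 CPM at P30 and 245 CPM at P6.

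Promoter sequence is shown for the genes that fell and carry an E2F site, the element through which the E2F factors and the retinoblastoma proteins time transcription to S phase. The first RefSeq promoter listed for a gene, from 250 bases before to 50 after the start (GRCm38.p6), was matched for 43 of the 49 genes. Other starts of a gene were not read, so a site there would be missed. The site searched was TTTCCCGC, TTTCGCGC, TTTGCCGC or TTTGGCGC on either strand, and 11 of the 43 promoters held it, which is 25.6% (exact Clopper-Pearson 95% interval 13.5% to 41.2%). Of all 27025 promoters, 2.32% held it, and of 8970 promoters of tested genes, 4.24%. With only 100 bases before the start read, 6 of the 43 held it (13.9%), against 2.27% of promoters of tested genes. Among the 11 genes, Clspn, Bard1, Rad51c, Brca2, Fancg and Topbp1 fell, and their promoters follow, 5′ to 3′ on the gene's strand, with the matching letters in capitals.
Clspn, chr4:126556730-126557029, plus strand: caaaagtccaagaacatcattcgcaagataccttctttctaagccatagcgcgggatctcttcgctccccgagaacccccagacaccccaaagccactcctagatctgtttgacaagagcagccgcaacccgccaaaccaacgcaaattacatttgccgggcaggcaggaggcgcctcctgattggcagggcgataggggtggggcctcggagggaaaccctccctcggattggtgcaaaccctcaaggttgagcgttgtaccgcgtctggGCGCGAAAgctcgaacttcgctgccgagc
Bard1, chr1:71102923-71103222, minus strand: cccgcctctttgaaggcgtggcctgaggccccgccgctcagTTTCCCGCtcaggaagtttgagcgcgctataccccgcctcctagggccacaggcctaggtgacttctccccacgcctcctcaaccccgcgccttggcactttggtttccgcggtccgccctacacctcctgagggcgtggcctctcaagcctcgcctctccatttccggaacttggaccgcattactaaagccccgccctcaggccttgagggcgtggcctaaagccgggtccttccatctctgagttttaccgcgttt
Rad51c, chr11:87404457-87404756, minus strand: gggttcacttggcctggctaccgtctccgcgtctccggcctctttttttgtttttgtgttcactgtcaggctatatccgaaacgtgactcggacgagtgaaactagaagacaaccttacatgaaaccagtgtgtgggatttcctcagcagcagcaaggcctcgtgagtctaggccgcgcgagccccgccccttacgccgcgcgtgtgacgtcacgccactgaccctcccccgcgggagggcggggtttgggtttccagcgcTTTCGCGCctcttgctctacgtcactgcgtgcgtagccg
Brca2, chr5:150522371-150522670, plus strand: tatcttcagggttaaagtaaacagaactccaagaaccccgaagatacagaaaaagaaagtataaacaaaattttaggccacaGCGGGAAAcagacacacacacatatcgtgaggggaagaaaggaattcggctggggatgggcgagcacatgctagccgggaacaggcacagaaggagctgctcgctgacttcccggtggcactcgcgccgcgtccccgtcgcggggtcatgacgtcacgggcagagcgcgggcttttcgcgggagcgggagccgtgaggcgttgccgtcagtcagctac
Fancg, chr4:43010252-43010551, minus strand: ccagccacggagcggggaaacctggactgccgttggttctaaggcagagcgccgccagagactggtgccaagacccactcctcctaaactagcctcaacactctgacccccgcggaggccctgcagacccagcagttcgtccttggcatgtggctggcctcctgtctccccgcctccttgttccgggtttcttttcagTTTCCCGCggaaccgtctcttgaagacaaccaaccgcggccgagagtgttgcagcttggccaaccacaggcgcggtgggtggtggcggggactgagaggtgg
Topbp1, chr9:103305077-103305376, plus strand: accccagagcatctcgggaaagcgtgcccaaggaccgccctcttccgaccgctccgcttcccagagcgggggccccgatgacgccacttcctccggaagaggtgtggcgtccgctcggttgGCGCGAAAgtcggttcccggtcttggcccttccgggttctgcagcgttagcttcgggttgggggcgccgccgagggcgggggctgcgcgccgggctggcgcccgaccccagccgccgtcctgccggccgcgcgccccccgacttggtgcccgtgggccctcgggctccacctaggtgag

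In Rad51c the match begins 11 bases after the RefSeq start and in Clspn 21 bases after it. It begins 52 bases before the start in Fancg, 129 before in Topbp1, 168 before in Brca2 and 209 before in Bard1. The site was not confined to genes that fell: 6 of 18 matched genes that fell held the site, 33.3% (exact interval 13.3% to 59.0%), and 5 of 25 that did not fall, 20.0% (6.83% to 40.7%). In the shorter window the site was in 3 of 18 genes that fell and 3 of 25 that did not. The 5 others were Chek2, Msh3, Xrcc6, Mdc1 and Msh6. By class the site was in 4 of 19 recombination and Fanconi promoters, 4 of 10 checkpoint promoters and 3 of 14 of the remaining classes. Chek1, whose fall had the smallest adjusted p of the set, had no match in its window (36726609 to 36726908, minus strand). The annotated gene runs to 36727065, so its outermost start lies outside the window that was read. The sequence CCAAT, on either strand and counted apart from the E2F letters, which it may overlap, was in 26 of 43 promoters (60.5%), in 39.0% of promoters of tested genes and in 37.9% of all promoters. Among the matched genes it was in 8 of 18 that fell and 18 of 25 that did not. The letters TTTGAA, part of a cell cycle element, were in 1 of 43 promoters, that of Bard1, against 11.3% of promoters of tested genes and 18.1% of all. A match of letters is a description of the window and says nothing of what binds there.

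Among the 15 recombination genes, the largest falls were those of Exo1, Bard1, Rad54l and Brca1. Exo1, the exonuclease that lengthens the single-stranded end (chromosome 1, 175880581 to 175913489, plus strand, GRCm38), had 0.167, 0.517 and 0.0702 CPM at P30, and 1.08, 2.63, 3.02 and 3.46 CPM at P6. Every P30 library lay below every P6 library, and the P30 values rest on 3, 8 and 1 counts. For Exo1 the log2 fold change was -3.33 ± 0.62 (SE, edgeR adjusted p = 0.00144). With 1 library left out, that of Exo1 ran from -4.33 (without P30b) to -2.93. Brca1, the ubiquitin ligase that steers breaks into recombination (chromosome 11, 101488764 to 101551955, minus strand), had 1.00, 1.10 and 0.281 CPM at P30, and 3.17, 5.29, 3.56 and 3.04 CPM at P6. The ages did not overlap, with P30c the lowest library, and the log2 fold change of Brca1 was -2.23 ± 0.43 (edgeR adjusted p = 0.00178). Its partner Bard1 had 0.391, 0 and 0.140 CPM at P30, from 7, 0 and 2 counts, against 0.830 to 1.47 CPM at P6. This gave Bard1 a log2 fold change of -2.65 ± 0.69, which ran from -4.03 (without P30a) to -2.10 with 1 library left out.

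Brca2, which works on the single-stranded DNA that recombination makes (chromosome 5, 150522630 to 150570329, plus strand), had 4.07, 2.52 and 2.81 CPM at P30, and 9.95, 9.86, 7.10 and 6.50 CPM at P6. The groups were apart, and the log2 fold change of Brca2 was -1.40 ± 0.25 (edgeR adjusted p = 0.00125). Palb2, which joins Brca2 to Brca1, averaged 0.851 ± 0.176 CPM at P30 and 1.21 ± 0.575 CPM at P6 and did not pass the test. Rad54l, a motor protein that helps strand invasion, averaged 0.886 ± 0.499 CPM at P30 and 5.58 ± 0.869 CPM at P6, and its log2 fold change was -2.63 ± 0.38; it shares 15.4% of its exon bases with Lrrc41 on the opposite strand. Blm, the helicase that dissolves joined molecules (chromosome 7, 80454733 to 80535119, minus strand), had 2.51, 3.30 and 2.67 CPM at P30, and 10.5, 6.53, 9.12 and 8.86 CPM at P6. No P30 library reached the lowest P6 library, and the log2 fold change of Blm was -1.62 ± 0.22 (edgeR adjusted p = 0.000266).

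Rad51b, Rad51c, Rad51d, Xrcc2 and Xrcc3, related genes that assist strand exchange, did not move together. Rad51b averaged 0.636 ± 0.196 CPM at P30 and 2.23 ± 0.333 CPM at P6 (log2 fold change -1.80 ± 0.35), and Rad51c averaged 1.803 ± 0.581 CPM at P30 and 5.55 ± 0.994 CPM at P6 (-1.62 ± 0.28). Rad51d averaged 14.9 ± 0.482 CPM at P30 and 14.0 ± 0.766 CPM at P6, and Xrcc3 averaged 5.84 ± 1.60 CPM at P30 and 5.60 ± 1.67 CPM at P6; neither passed the test. Xrcc2, which pairs with Rad51d (chromosome 5, 25689812 to 25705825, minus strand), had 21.1, 19.3 and 14.2 CPM at P30, and 7.87, 10.2, 9.03 and 8.61 CPM at P6. All P30 libraries of Xrcc2 were above all P6 libraries, with a log2 fold change of 1.02 ± 0.17 (edgeR adjusted p = 0.000697). In the 15 recombination genes, 9 fell and Xrcc2 was the only one that rose.

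The Mre11, Rad50 and Nbn complex, which binds broken ends for both recombination and Atm signalling, was split. Rad50, the long coiled-coil subunit (chromosome 11, 53649519 to 53707319, minus strand), had 10.8, 9.76 and 8.91 CPM at P30, and 20.4, 18.3, 14.7 and 18.6 CPM at P6. The ages did not overlap, and the log2 fold change of Rad50 was -0.87 ± 0.15 (edgeR adjusted p = 0.00110). Mre11a, the nuclease, averaged 9.60 ± 0.742 CPM at P30 and 9.03 ± 0.716 CPM at P6 and did not pass. Nbn, the subunit that recruits Atm (chromosome 4, 15957925 to 15992589, plus strand), had 37.2, 40.3 and 43.4 CPM at P30, and 51.7, 43.0, 46.5 and 46.5 CPM at P6. Its ranges overlapped at P30c and P6b, and its log2 fold change of -0.22 ± 0.10 did not pass (edgeR adjusted p = 0.0984). Nbn was the most counted recombination gene at both ages, and the sum of the 15 was 110 ± 2.05 CPM at P30 and 142 ± 4.94 CPM at P6.

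**Figure D3:**
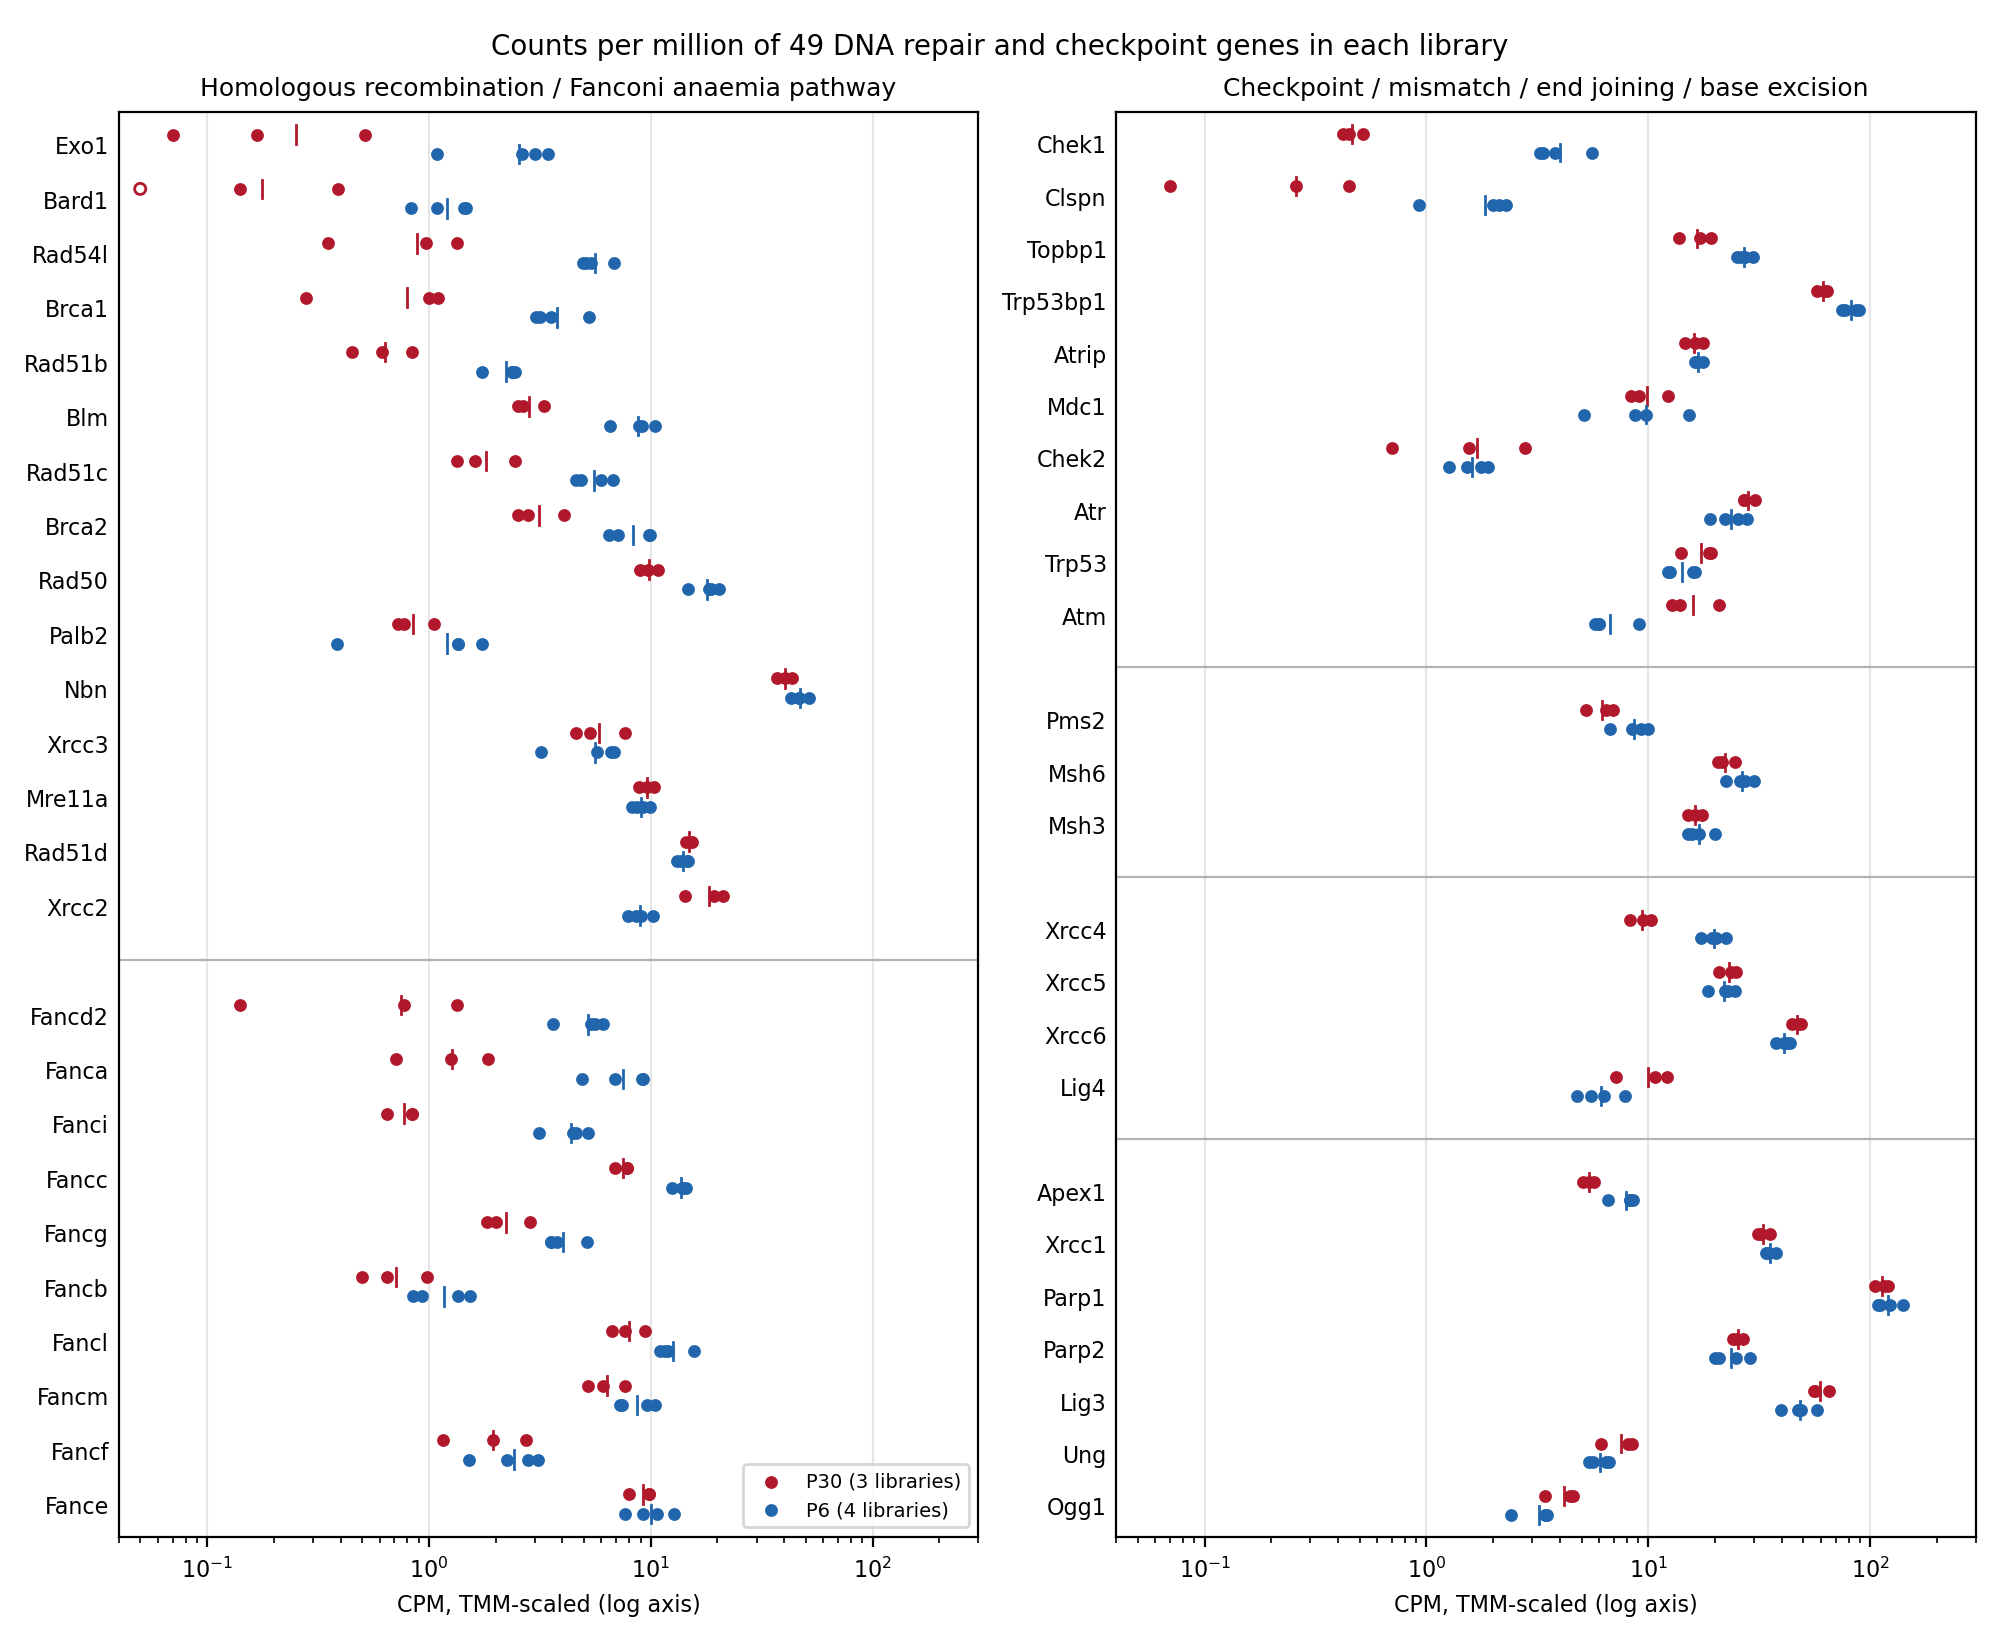
CPM of the 49 genes in each of the 3 P30 and 4 P6 libraries, on a log axis, with vertical bars for the means; the open circle near the left edge is a count of 0, that of Bard1 in P30b. Exo1, Brca1, Chek1 and Fancd2 sit in separate ranges at the ages, whereas the P30 and P6 points of Parp1, Xrcc5 and Mre11a lie on one another.

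In the Fanconi pathway 6 of 10 genes fell and none rose, and the falls were largest in Fancd2, Fanca and Fanci. Fancd2, which with Fanci forms the clamp placed on crosslinked DNA (chromosome 6, 113531682 to 113597017, plus strand), had 1.34, 0.776 and 0.140 CPM at P30, and 3.62, 5.63, 6.12 and 5.40 CPM at P6. The highest P30 library was below the lowest P6 library, with 24, 12 and 2 counts behind the P30 values. For Fancd2 the log2 fold change was -2.75 ± 0.50 (edgeR adjusted p = 0.00124). With 1 library left out, that of Fancd2 ran from -3.47 (without P30a) to -2.29. Fanci averaged 0.775 ± 0.112 CPM at P30 and 4.36 ± 0.887 CPM at P6, a log2 fold change of -2.49 ± 0.30; 15.9% of its exon bases are shared with Polg on the opposite strand. Fanca, a subunit of the core, averaged 1.27 ± 0.565 CPM at P30 and 7.54 ± 2.05 CPM at P6, a log2 fold change of -2.55 ± 0.36; it shares 10.5% of its exon bases with Zfp276 on the opposite strand.

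Smaller falls were measured in the core subunits Fancc, Fancl and Fancg. Fancc (chromosome 13, 63285043 to 63497278, minus strand) had 6.92, 7.82 and 7.79 CPM at P30, and 12.5, 14.0, 13.9 and 14.4 CPM at P6. The ages were well apart, and the log2 fold change of Fancc was -0.87 ± 0.14 (edgeR adjusted p = 0.000559). Fancl, the ubiquitin ligase of the core (chromosome 11, 26386135 to 26471876, plus strand), had 6.69, 7.69 and 9.47 CPM at P30, and 12.03, 11.02, 15.7 and 11.7 CPM at P6. The groups of Fancl did not overlap, with a log2 fold change of -0.67 ± 0.19 (edgeR adjusted p = 0.0123), but the call was lost without P30a (edgeR adjusted p = 0.0593), and 13.7% of its exon bases are shared with Vrk2 on the opposite strand. Fancg averaged 2.23 ± 0.543 CPM at P30 and 4.02 ± 0.772 CPM at P6, and its call (log2 fold change -0.86 ± 0.27) was lost without P30a or P30c (edgeR adjusted p up to 0.0812).

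The other core genes did not pass. Fance, which links the core to Fancd2 (chromosome 17, 28313519 to 28326572, plus strand), had 7.98, 9.82 and 9.82 CPM at P30, and 10.7, 12.7, 9.22 and 7.68 CPM at P6. Its ranges overlapped, with a log2 fold change of -0.14 ± 0.19 (edgeR adjusted p = 0.576). The log2 fold change was -0.74 ± 0.41 for Fancb, -0.34 ± 0.36 for Fancf and -0.45 ± 0.21 for Fancm, the translocase that brings the core to DNA. Summed, the 10 genes were at 38.7 ± 1.98 CPM at P30 and 69.8 ± 6.73 CPM at P6.

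Of the 10 checkpoint genes, 4 fell and Atm rose. On the Atr arm, Chek1, the kinase that restrains entry into mitosis when replication stalls (chromosome 9, 36708482 to 36727065, minus strand), had 0.446, 0.517 and 0.421 CPM at P30, and 3.35, 3.80, 3.24 and 5.57 CPM at P6. The P30 values rest on 8, 8 and 6 counts and lie far below every P6 library. For Chek1 the log2 fold change was -3.08 ± 0.34 (edgeR adjusted p = 7.18e-05). Clspn, the adaptor that presents Chek1 to Atr, averaged 0.258 ± 0.188 CPM at P30 and 1.83 ± 0.616 CPM at P6. The log2 fold change of Clspn was -2.78 ± 0.55, and ran from -3.44 (without P30a) to -2.37 with 1 library left out. Topbp1, the activator of Atr (chromosome 9, 103305215 to 103350428, plus strand), had 19.1, 17.1 and 13.8 CPM at P30, and 25.1, 27.3, 29.7 and 26.2 CPM at P6. No library of one age reached the other, and the log2 fold change of Topbp1 was -0.70 ± 0.14 (edgeR adjusted p = 0.00207).

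The Atr kinase itself (chromosome 9, 95857597 to 95951781, plus strand) had 30.1, 26.9 and 26.9 CPM at P30, and 27.8, 18.9, 22.1 and 25.4 CPM at P6. These ranges overlapped at P6a, and the log2 fold change of Atr was 0.26 ± 0.14 (edgeR adjusted p = 0.154). Its partner Atrip averaged 16.1 ± 1.53 CPM at P30 and 16.7 ± 0.611 CPM at P6 and did not pass; it shares 16.04% of its exon bases with Trex1 on the same strand, so its count is uncertain.

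On the Atm arm, Atm, the kinase that answers double-strand breaks (chromosome 9, 53439149 to 53536740, minus strand), had 20.9, 13.9 and 12.8 CPM at P30, and 5.97, 9.12, 5.97 and 5.74 CPM at P6. Each P30 library was above each P6 library, and the log2 fold change of Atm was 1.23 ± 0.23 (edgeR adjusted p = 0.00152). Trp53, the tumour suppressor phosphorylated by these kinases (chromosome 11, 69580359 to 69591873, plus strand), had 18.7, 19.3 and 14.0 CPM at P30, and 15.9, 16.2, 12.3 and 12.5 CPM at P6. The ranges of Trp53 overlapped, with a log2 fold change of 0.29 ± 0.17 (edgeR adjusted p = 0.171). Chek2 averaged 1.68 ± 1.04 CPM at P30 and 1.61 ± 0.279 CPM at P6, and Mdc1, the scaffold at broken ends, averaged 9.91 ± 2.12 CPM at P30 and 9.73 ± 4.21 CPM at P6; neither passed. Trp53bp1, the chromatin reader that favours end joining (chromosome 2, 121193281 to 121271407, minus strand), had 63.9, 61.7 and 57.4 CPM at P30, and 86.5, 89.3, 74.8 and 77.4 CPM at P6. Its ages did not overlap although the change was small, with a log2 fold change of -0.43 ± 0.10 (edgeR adjusted p = 0.00464), and 15.0% of its exon bases are shared with Tubgcp4 on the opposite strand.

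None of the 3 mismatch repair genes passed. Msh6, which reads single mismatches (chromosome 17, 87975062 to 87990892, plus strand), had 20.5, 24.5 and 21.4 CPM at P30, and 27.3, 30.0, 22.4 and 25.8 CPM at P6. Only P30b lay inside the P6 range, and the log2 fold change of Msh6 was -0.25 ± 0.13 (edgeR adjusted p = 0.133). Msh3, which reads larger loops, averaged 16.2 ± 1.20 CPM at P30 and 16.9 ± 2.16 CPM at P6. Pms2, a subunit of the nuclease that acts next, averaged 6.21 ± 0.856 CPM at P30 and 8.58 ± 1.36 CPM at P6, a log2 fold change of -0.47 ± 0.19 (edgeR adjusted p = 0.0616). Pms2 was called lower without P6d (edgeR adjusted p = 0.0309), with the length trend removed (edgeR adjusted p = 0.0192) and with library totals (edgeR adjusted p = 0.0197).

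In end joining, the ligase and its scaffold moved in opposite directions and the end-binding pair did not pass. Xrcc4, the scaffold of the ligase (chromosome 13, 89774027 to 90089608, minus strand), had 9.48, 8.27 and 10.3 CPM at P30, and 19.4, 17.2, 20.1 and 22.4 CPM at P6. The ages were far apart, with a log2 fold change of -1.08 ± 0.14 (edgeR adjusted p = 0.000223). Lig4, the ligase (chromosome 8, 9969049 to 9977686, minus strand), had 12.1, 10.7 and 7.16 CPM at P30, and 5.52, 4.76, 7.89 and 6.33 CPM at P6. The groups overlapped, since P30c lay below P6c. The log2 fold change of Lig4 was 0.70 ± 0.24 (edgeR adjusted p = 0.03002), and the call was lost without any of P30a, P30b, P6a, P6b and P6d and with library totals (edgeR adjusted p up to 0.135).

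Xrcc5 and Xrcc6 encode the large and small subunits of the Ku ring that grips broken ends. Xrcc5 (chromosome 1, 72307421 to 72394952, plus strand) had 20.8, 23.6 and 24.9 CPM at P30, and 22.2, 18.6, 22.8 and 24.6 CPM at P6, with a log2 fold change of 0.07 ± 0.13 (edgeR adjusted p = 0.676). Xrcc6 (chromosome 15, 81987835 to 82040085, plus strand) had 44.6, 48.8 and 47.5 CPM at P30, and 37.5, 43.3, 42.4 and 41.0 CPM at P6. The ranges of Xrcc5 overlapped, whereas those of Xrcc6 did not, yet its log2 fold change of 0.19 ± 0.09 did not pass the test (edgeR adjusted p = 0.108). Counted by ranges alone, 21 of the 49 genes had all P30 libraries below all P6 libraries and 3 had them above, against 28.8% and 27.8% of all genes tested.

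The base excision and single-strand break class had the highest summed CPM of the 6 classes, and 1 of its 7 genes passed. Parp1, the break sensor that builds poly(ADP-ribose) chains (chromosome 1, 180568924 to 180601254, plus strand), had 120.2, 115.2 and 104.9 CPM at P30, and 123, 141, 111 and 108 CPM at P6. The ages overlapped, and the log2 fold change of Parp1 was -0.09 ± 0.11 (edgeR adjusted p = 0.506). Per kilobase, Parp1 was the highest of the 49 genes at P30, at 29.3 CPM per kb, ahead of Nbn with 15.9 and Xrcc6 with 14.3 CPM per kb, while Exo1 and Bard1 were lowest with 0.0323 and 0.0313 CPM per kb. Apex1, the endonuclease that cuts at abasic sites (chromosome 14, 50924968 to 50927139, plus strand), had 5.41, 5.69 and 5.05 CPM at P30, and 8.50, 8.26, 6.60 and 8.27 CPM at P6. Its ages did not overlap, and its log2 fold change was -0.55 ± 0.17 (edgeR adjusted p = 0.0224). The call of Apex1 was lost without P30a or P30c, with no filter and with the length trend removed (edgeR adjusted p up to 0.196), and 61.7% of its exon bases lie over Pip4p1 on the opposite strand, so its count is uncertain.

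The remaining base excision genes did not pass. Lig3, the ligase that seals single-strand breaks, averaged 59.3 ± 5.07 CPM at P30 and 48.4 ± 7.21 CPM at P6, and its scaffold Xrcc1 averaged 32.9 ± 2.12 CPM at P30 and 35.2 ± 1.54 CPM at P6. The log2 fold change of Lig3 was 0.29 ± 0.13 (edgeR adjusted p = 0.0811), and it passed without P6b (edgeR adjusted p = 0.0185). Lig3 shares 25.1% of its exon bases with Rffl on the opposite strand. Log2 fold changes were 0.11 ± 0.14 for Parp2, a relative of Parp1, 0.39 ± 0.24 for Ogg1, the glycosylase that removes oxidised guanine, and 0.32 ± 0.18 for Ung, which removes uracil.

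Shares of counts within 12 pairs of partners gave a measure that no library scaling affects. Chek1 made up 22.2%, 15.7% and 37.5% of the Chek1 and Chek2 counts in the P30 libraries, and 72.5%, 68.3%, 63.1% and 78.6% in the P6 libraries. Chek1 was thus the lesser of the pair in every P30 library and the greater in every P6 library. Xrcc4 made up 48.8% ± 8.84 of its pair with Lig4 at P30 (SD, n = 3) and 76.5% ± 3.11 at P6 (SD, n = 4), and Rad50 made up 50.5% ± 0.463 of its pair with Mre11a at P30 and 66.4% ± 4.07 at P6. In these 3 pairs the ages did not overlap, and the two-sided exact permutation test gave p = 0.0286, the smallest that 35 arrangements of 7 libraries allow. Adjusted over the 12 pairs by Benjamini-Hochberg, the exact permutation p was 0.114, so 0 pairs passed.

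**Figure D4:**
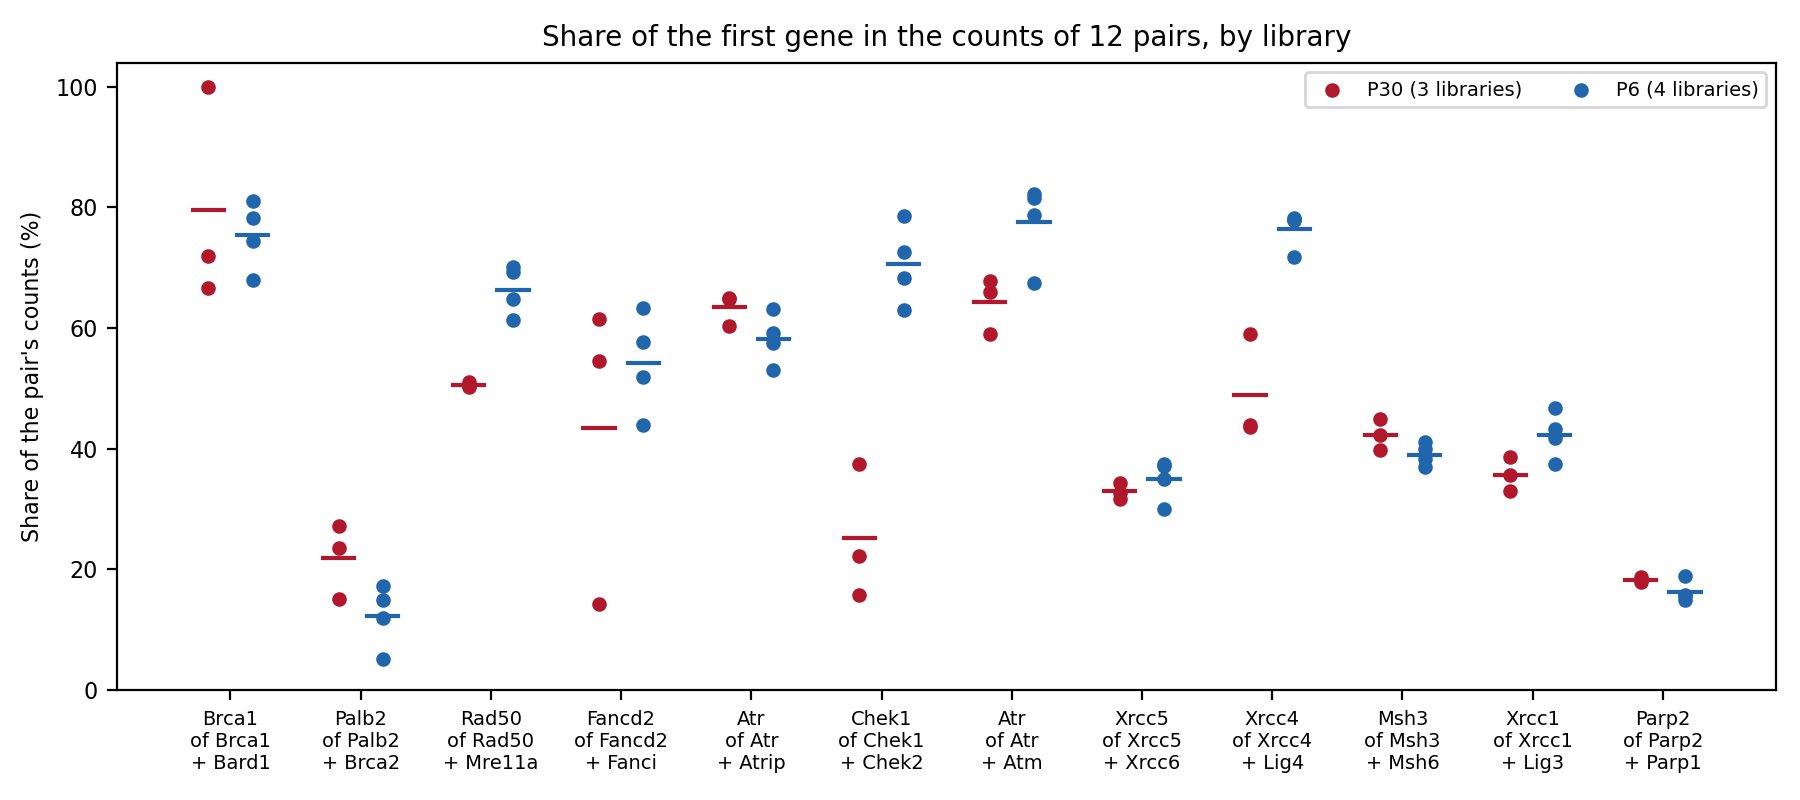
Percent of the pair's counts that came from the first-named gene, in each of the 3 P30 and 4 P6 libraries for 12 pairs of partner genes. Chek1, Xrcc4 and Rad50 show separate ranges for the ages, while the points of Xrcc5 in its pair with Xrcc6 overlap at 32.9% at P30 and 34.9% at P6 on average.

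In the other 9 pairs the ages overlapped. Atr made up 64.3% ± 4.65 of its pair with Atm at P30 and 77.5% ± 6.88 at P6 (exact permutation p = 0.0857, and 0.190 adjusted). Xrcc5 made up 32.9% ± 1.35 of Ku counts at P30 and 34.9% ± 3.39 at P6 (exact permutation p = 0.343). Fancd2 made up 43.5% ± 25.5 of its pair with Fanci at P30, where few counts were behind it, and 54.2% ± 8.31 at P6.

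Other genes of the same pathways, outside the 49, were counted by class, beside 27.8% lower and 26.3% higher over all genes tested. Of 25 further recombination and Fanconi genes, 10 were lower and 2 higher at P30, with a median log2 fold change of -0.37. Rpa1, a subunit of the protein that coats single-stranded DNA, was at 71.0 ± 6.53 CPM at P30 and 106 ± 6.68 CPM at P6. Rad54b had a log2 fold change of -3.31 ± 0.59, with only 0.279, 0.388 and 0 CPM at P30. It shares 35.8% of its exon bases with Fsbp on the same strand, so its count is uncertain. Polq, the polymerase of microhomology-mediated end joining, went the other way, at 17.9, 16.2 and 12.4 CPM at P30 and 1.90, 2.46, 2.25 and 3.38 CPM at P6. Polq had a log2 fold change of 2.64 ± 0.22, beyond any of the 49 genes in that direction. It was placed in this list and is not counted among the further end joining genes below. Of 17 further damage signalling genes, 6 were lower and 2 higher. Among them were Wee1, a kinase that holds back mitosis, with a log2 fold change of -1.40 ± 0.28, Cdc25c, the phosphatase that counters it, with -4.21 ± 0.60, and Rad1, a subunit of the checkpoint clamp, with 0.68 ± 0.16. The P30 values of Cdc25c, 0.669, 0.2585 and 0 CPM, rest on few counts.

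Further lists of repair genes are to be read against the same shares of all genes tested, 27.8% lower and 26.3% higher. Of 6 further end joining genes, 2 were higher and none lower, with log2 fold changes of 0.50 ± 0.16 for Prkdc, the DNA-dependent protein kinase, and 0.65 ± 0.15 for Poll, a gap-filling polymerase. Of 13 further base excision and strand break genes tested, 3 were lower and 2 higher. Parp3, a relative of Parp1, was at 52.8 ± 5.48 CPM at P30 and 10.9 ± 2.79 CPM at P6 (log2 fold change 2.29 ± 0.19), whereas the glycosylase Neil3 was at 0.597 ± 0.434 CPM at P30 and 7.19 ± 1.33 CPM at P6, and Aptx, which trims failed ligations, had a log2 fold change of -0.38 ± 0.12. Of 16 nucleotide excision repair genes, 4 were lower and 3 higher. They include Rad23b at -0.32 ± 0.10, Cetn2 at -0.91 ± 0.13 and Ercc4, a nuclease subunit, at 0.37 ± 0.12 on the log2 scale. Of 9 translesion synthesis genes, 2 were lower and 1 higher, with log2 fold changes of -1.59 ± 0.34 for Rad18, -0.29 ± 0.11 for Hltf and 0.51 ± 0.16 for Shprh, all ubiquitin ligases.

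Of 20 genes known as targets of Trp53, 7 were lower and 4 higher, near the 27.8% and 26.3% of all genes tested. Perp, a membrane protein, was at 280 ± 7.03 CPM at P30 and 814 ± 143 CPM at P6. Cdkn1a, also among the 7 that were lower, was at 35.2 ± 7.23 CPM at P30 and 82.3 ± 2.835 CPM at P6. Of the 4 that were higher, Btg2, which restrains division, was at 456 ± 192 CPM at P30 and 68.8 ± 22.4 CPM at P6. Ccng1 was at 1140 ± 98.1 CPM at P30 and 724 ± 80.2 CPM at P6. The proliferation markers included Rrm2, a subunit of ribonucleotide reductase, at 6.19 ± 0.629 CPM at P30 and 136 ± 21.8 CPM at P6, and Ccnb1, the mitotic cyclin, at 0.543 ± 0.497 CPM at P30 and 31.3 ± 9.66 CPM at P6. The median log2 fold change of the 18 proliferation markers was -2.98, against -1.40 for the 15 recombination genes and -0.80 for the 10 Fanconi genes.

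In the authors' deposited table, which compares the same libraries, each of the 49 genes had the same call, with 21 lower and 3 higher. Of the 16500 genes with an adjusted p there, the authors' deposited table had 20.8% lower at P30 and 22.1% higher.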

How the data were processed

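RNA from sorted cardiomyocytes was sequenced on a NextSeq500 from SMART-Seq v4 and Nextera XT libraries, per the labels. The authors deposited raw counts per gene; CASAVA 1.8, STAR 2.5.3a, featureCounts from Subread 1.5.2, DESeq2 and mm10 are named in the submitters' processing notes. Not given in the sources used here are the strand setting, the annotation and how multi-mapping reads were treated; genes that overlap others (19 of the 49) therefore carry uncertain counts. A table deposited by the authors compares the ages: its mean count is a size-factor-scaled signal, its fold changes and errors are on the log2 scale, its test statistic is a score, and its p-value columns are the authors' own, per the file headers.

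Each count column was put in the group of the age it names. In R 4.3.3, edgeR 4.0.16 was run with filterByExpr and TMM scaling, and age was the only term of its quasi-likelihood fit. The Benjamini-Hochberg method was applied over 12561 genes, with 0.05 as the threshold. The biological coefficient of variation was 18.3%. Each fold change is given with its SE as P30 over P6, and group values are mean ± SD. The procedure was tested on simulated counts in which few genes changed, as many up as down. That test does not show how the scaling behaves where many genes change. Alternatives were DESeq2 1.42.0, its size factors in edgeR, library totals, no filter, a filter of 1 CPM in 3 libraries, a length trend removed, and each library left out.

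The members and lists were chosen with earlier results of these data known. Values in every library are given, in each class, for the called members with most CPM per kb, the largest change, the most counted called in the other direction and the most counted not called, and for Trp53, Brca1, Brca2, Atm, Atr, Parp1, Xrcc5 and Xrcc6. Other members are given as means or fold changes, and values of Bard1 and counts behind low levels were added after their values were seen. Coordinates and lengths are from GENCODE M21 (GRCm38) and promoters from RefSeq (GRCm38.p6). Intervals of promoter shares cover counting error only.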

Additional observations from a re-analysis of the deposited data

Results flagged for a closer look

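Of 49 genes examined for a P6 library far from the other 3, 5 were marked, and chance marks about 1 in 20 such groups. P6b stood apart in 3 of them: Rad51b had its lowest P6 value there at 1.73 CPM, Fancg its highest at 5.16 CPM, and Atm its highest at 9.12 CPM. P6c stood apart in the other 2, with the lowest P6 value of Ogg1 at 2.41 CPM and of Apex1 at 6.60 CPM. Without P6b, Atm, Rad51b and Fancg kept their calls.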

How the results depend on the processing

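With 18 to 22 members lower at P30 when 1 library was left out, and 20 to 26 under the other alternatives, the count of 21 stayed within 1.5 times of itself; the count of recombination and Fanconi genes was 13 to 15 with 1 library left out and up to 17 with library totals. The 2 lower mismatch, end joining and base excision genes were 5 with library totals and 1 with no filter, and 1 to 3 with 1 library left out. Library totals moved the median over all genes to -0.20 on the log2 scale (4658 lower and 2408 higher) and turned 7 values, none of them called in either fit: Rad51d at -0.093, Xrcc3 at -0.14, Mre11a at -0.10, Chek2 at -0.14, Mdc1 at -0.19, Xrcc5 at -0.11 and Parp2 at -0.074. With the length trend removed, Mre11a was at -0.0095 and Mdc1 at -0.15. With 1 library left out, Xrcc3 ran between -0.19 and 0.20, Atrip between -0.12 and 0.018, Chek2 between -0.51 and 0.40, Mdc1 between -0.19 and 0.31, Msh3 between -0.12 and 0.029, and Xrcc5 between -0.0082 and 0.14. Pms2, Fancm, Nbn, Msh6 and Xrcc1 were called lower with library totals, and Pms2 and Fancm with the length trend removed. The cause was not tested. Of 49 levels per kb, 36 moved with the median coding length in place of the longest, and the promoter share with the E2F site was 13.9% of members and 1.26% of all promoters when only 100 bases before the start were read. At P30, 11 members under 1 CPM limit the precision of their fold changes. No paired analysis was possible because the count columns carry letters that the labels tie to no numbered title.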
